A study of Mus musculus with 20 samples.

Results

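Cdh1, Epcam, Cdh2, Vim, Fn1, Snai1, Snai2, Zeb1, Zeb2 and Twist1 are genes by which an epithelial cell state is told from a mesenchymal one. They were taken as a list of symbols, matched to the Ensembl identifiers of the count table, and are 10 of its 55573 genes, of which 33860 had a nonzero value in at least 1 library. All 10 were counted in each of the 20 libraries. RNA-seq was performed on mouse induced pluripotent stem cells (iPSCs) of 4 lines, the wild type (WT) lines WT#1-4 and WT#20D-17 and a pair of knockout lines, Nox4-/- #5-23 together with Nox4-/- #5-8, which lack the hydrogen peroxide-generating NADPH oxidase Nox4. Each line gave 1 library on each of days 0, 3, 5, 7 and 14, and the treatment was the same for all: growth with LIF on feeder layers of mitomycin C-treated embryonic fibroblasts, aggregation into embryoid bodies in hanging drops without LIF for 3 days, and plating on gelatin. The study's methods describe its iPSC lines as clones picked after retroviral transfer of Oct4, Sox2, Klf4 and c-Myc into embryonic fibroblasts; how WT#20D-17 in particular was derived is not given in the sources used here. The last day is taken as day 14 from the sample titles and characteristics, although the treatment text in the labels ends on another day. That text counts days from plating, the study's text counts days of other assays from the start of differentiation, and days are given here as labelled.

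Library totals were between 20294968 and 27708023 counts, with a median of 23878854. Levels are given as CPM, counts relative to the library total after TMM scaling; before that scaling, 3 counts came to between 0.108 and 0.148 CPM, depending on the library. On build GRCm38 the genes lie at chr8:106603351-106670246 (Cdh1), chr17:87635979-87651129 (Epcam), chr2:13573927-13582826 (Vim), chr1:71585520-71653200 (Fn1), chr2:167538195-167542814 (Snai1), chr16:14705852-14709385 (Snai2), chr2:44983632-45117395 (Zeb2) and chr12:33957671-33959829 (Twist1), and Cdh2 and Zeb1 lie on chromosome 18. All are protein-coding, and counts cover their exons. The 5 days of a line are repeated samples of 1 clone, so the line is the independent unit and there are 2 per genotype.

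E-cadherin, the product of Cdh1, and the adhesion molecule EpCAM hold epithelial cells in a sheet. In an epithelial to mesenchymal transition, transcription factors of the Snail (Snai1, Snai2), Zeb (Zeb1, Zeb2) and Twist (Twist1) families repress Cdh1 and other junction genes, and N-cadherin (Cdh2), the intermediate filament vimentin (Vim) and fibronectin of the matrix (Fn1) are typically raised. Pluripotent mouse cells are known to carry E-cadherin and EpCAM, the reprogramming of fibroblasts passes through the reverse transition, and gastrulation uses the forward one.

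Snail and Zeb proteins are known to bind the E-box CAGGTG, which reads CACCTG on the other strand. RefSeq promoter sequence (build GRCm38.p6) was read for 5 of the 10 genes, Epcam, Vim, Snai1, Zeb2 and Twist1, over the 250 bases upstream of each start. Of 32851 windows of that length, 17.2% held the hexamer at least once on either strand, and 2.06% held it at least 2 times. Epcam held it 2 times, 187 to 182 and 19 to 14 bases upstream of the start, and Snai1 held it once, 126 to 121 bases upstream. The windows of Vim, Twist1 and the 4 starts of Zeb2 did not hold it. The starts are those of RefSeq, and the Vim window, chr2:13574061-13574310, lies inside the gene as placed above. Sequence upstream of that placed Vim start was not read. The Epcam and Snai1 windows are printed below because these genes, an epithelial surface molecule and a repressor, had the courses over days that differed most clearly between lines, with the hexamer in capitals, at chr17:87635729-87635978 and chr2:167537945-167538194, both on the plus strand. A match is a run of letters and was not tested as a site of binding.
Epcam: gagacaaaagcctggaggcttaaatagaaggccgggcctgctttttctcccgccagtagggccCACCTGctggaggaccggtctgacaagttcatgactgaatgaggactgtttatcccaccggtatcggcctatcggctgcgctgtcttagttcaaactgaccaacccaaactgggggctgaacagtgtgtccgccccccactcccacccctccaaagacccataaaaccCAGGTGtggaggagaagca
Snai1: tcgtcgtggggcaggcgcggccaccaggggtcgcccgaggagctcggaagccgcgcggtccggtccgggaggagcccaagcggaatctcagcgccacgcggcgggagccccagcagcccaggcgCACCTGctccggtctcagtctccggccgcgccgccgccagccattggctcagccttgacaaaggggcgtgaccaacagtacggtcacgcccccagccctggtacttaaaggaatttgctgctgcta

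One line stood apart from the other 3 before any comparison was made. On the same day and over 11522 genes with a mean of at least 5 CPM, log2 levels of WT#20D-17 correlated with those of another line at r between 0.537 and 0.728 (15 pairs of libraries), whereas pairs among the other 3 lines had r between 0.83 and 0.969 (15 pairs). The labelled cell type was checked against markers of pluripotent cells. On day 0, Nanog was at 383 CPM in WT#20D-17 and at 0.0380, 0.359 and 0.149 CPM in WT#1-4, Nox4-/- #5-8 and Nox4-/- #5-23. Zfp42, another gene of naive pluripotency, was at 41.6 CPM in WT#20D-17 on day 0 and had 0 counts in all 15 libraries of the other lines, where 3 counts would be at most 0.148 CPM before TMM scaling. Sox2 was at 195 CPM in WT#20D-17 and at 33.6, 154 and 202 CPM in WT#1-4, Nox4-/- #5-8 and Nox4-/- #5-23. Pou5f1 (Oct4) was in contrast at 1136 CPM in WT#20D-17 and at 5760, 3081 and 4394 CPM in the other 3 lines on day 0. In a line that carries retroviral Oct4, Sox2 and Klf4, transcripts of the vector and of the resident gene cannot be told apart in these counts. Nanog and Zfp42 were thus near or at 0 in 3 of the 4 lines on day 0, where Pou5f1 and Sox2 were counted, and the tests over days below are given with and without WT#20D-17.

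At day 0, WT#20D-17 was the line with the highest Cdh1 and Epcam and the lowest Cdh2, Vim, Fn1, Snai2, Zeb1 and Twist1, although its Fn1 was close to that of Nox4-/- #5-8, its Snai1 was the highest of the 4 lines and its Zeb2 was above that of Nox4-/- #5-23. Over the 14 days the 3 lines gained Cdh1 and Epcam and lost Cdh2 and Zeb2, while in WT#20D-17 Cdh1 and Epcam stood lower on day 14 than on day 0 and Vim, Snai1 and Zeb2 stood higher. From day 0 to day 14, 6 of the 10 genes (Cdh1, Epcam, Cdh2, Snai1, Zeb1 and Zeb2) had 1 sign of change in the other 3 lines and the opposite sign in WT#20D-17, against 16.9% of the 11522 genes with a mean of at least 5 CPM. Only Vim and Fn1 had the same sign in all 4 lines, against 43.7% of those genes. In bulk RNA, fewer cells of a type and less RNA per cell cannot be told apart.

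**Figure D1:**
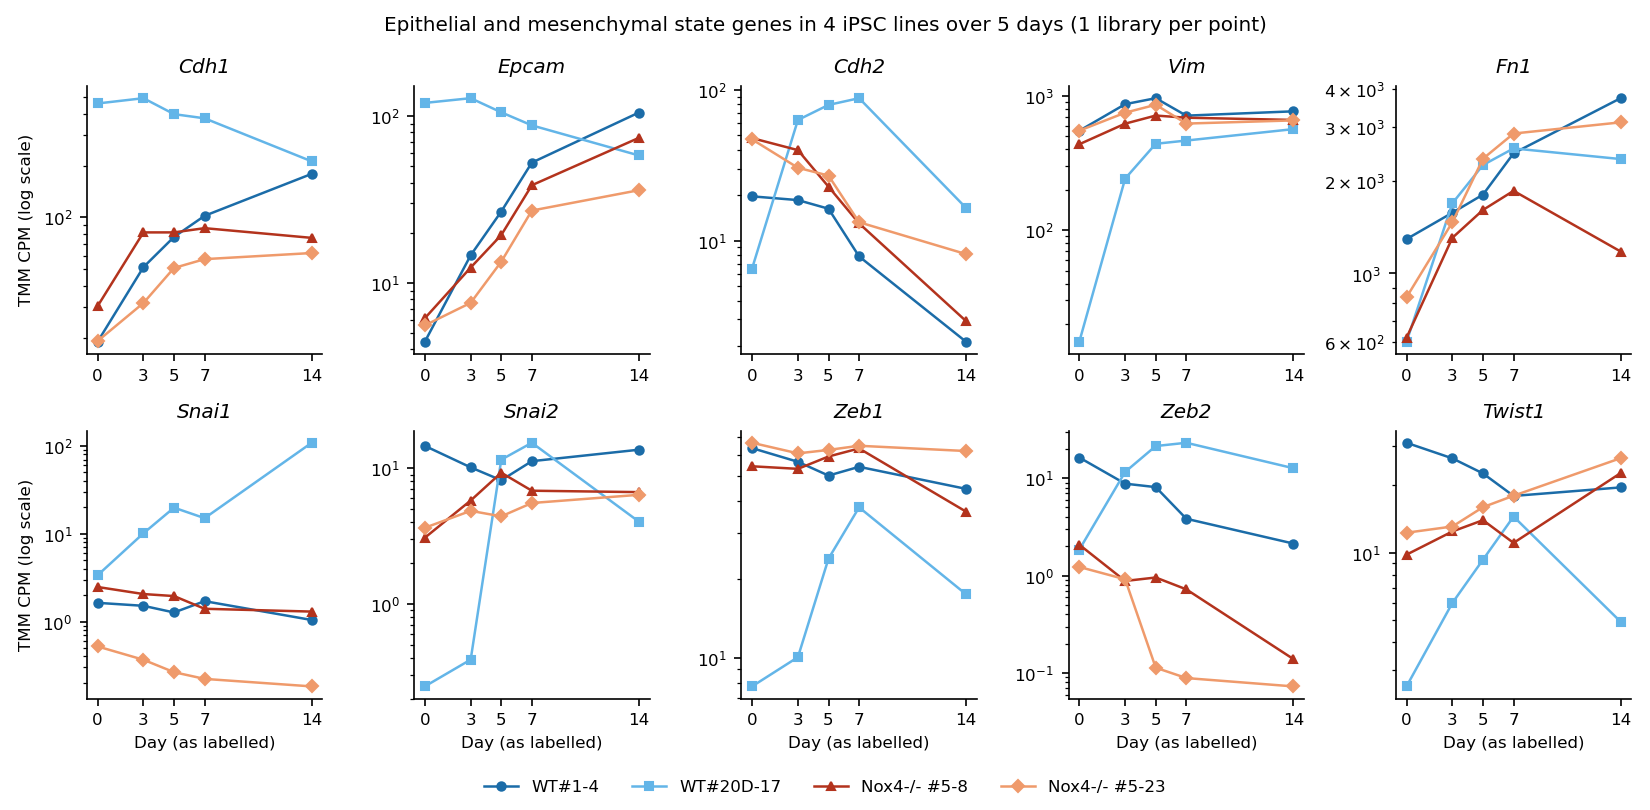
Level of each of the 10 genes (TMM CPM, log axis) against the labelled day, with 1 library per point and 1 coloured line per iPSC line. On day 0, WT#20D-17 sits far above the other lines for Cdh1 (459 CPM) and Epcam (119.9 CPM) and far below them for Vim (14.7 CPM) and Zeb1 (7.75 CPM), and the lines lie closer together on day 14 for these 4 genes.

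Of the 2 epithelial adhesion genes, Cdh1 was counted in WT#1-4 at 18.9, 51.4, 77.0, 102 and 179 CPM on days 0, 3, 5, 7 and 14. In WT#20D-17 it was at 459, 492.5, 398, 376 and 212 CPM on the same days. The wild type lines did not overlap, since the lowest level in WT#20D-17 was above the highest in WT#1-4, and the gap was narrowest on day 14. Nox4-/- #5-8 had 30.5, 81.8, 81.8, 86.6 and 76.0 CPM of Cdh1. Nox4-/- #5-23 had 19.1, 31.8, 50.8, 57.2 and 62.1 CPM. Both knockout lines overlapped with WT#1-4, had their lowest level on day 0 and stayed under the day 7 level of WT#1-4.

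Epcam was at 4.44, 14.7, 26.8, 52.6 and 105 CPM in WT#1-4 over the 5 days. WT#20D-17 had 119.9, 128, 105, 88.0 and 58.1 CPM. The order of the wild type lines turned over: WT#20D-17 was the higher one until day 7 and the lower one on day 14. In Nox4-/- #5-8, Epcam was at 6.15, 12.4, 19.4, 38.5 and 74.1 CPM. In Nox4-/- #5-23 it was at 5.58, 7.61, 13.4, 27.2 and 35.98 CPM. Each of the 3 lines other than WT#20D-17 was higher on every sampled day than on the day before it, with day 14 at 23.6, 12.0 and 6.45 times day 0 in WT#1-4, Nox4-/- #5-8 and Nox4-/- #5-23.

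Among mesenchymal adhesion, filament and matrix genes, Cdh2 was at 19.6, 18.6, 16.3, 7.85 and 2.13 CPM in WT#1-4. In WT#20D-17 its course was 6.52, 63.01, 79.3, 87.9 and 16.4 CPM. The first line had its highest level on day 0, the second on day 7. Nox4-/- #5-8 had 47.8, 39.8, 22.8, 13.0 and 2.92 CPM of Cdh2, and Nox4-/- #5-23 had 46.9, 30.4, 27.0, 13.2 and 8.13 CPM. The knockout lines thus had the day 0 maximum and the day 14 minimum of WT#1-4, from a higher start.

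Vim stood at 551, 870, 965, 715 and 770 CPM in WT#1-4. The filament gene was at 14.7, 243, 441, 466 and 567 CPM in WT#20D-17, so that day 14 was 38.5 times day 0, with no replicate of either library. The knockout lines ran between 437 and 716 CPM (#5-8) and between 552 and 861 CPM (#5-23), with day 0 lowest in both. From day 3 on, every line was within 243 to 965 CPM, and day 0 of WT#20D-17 lay far below that range. Fn1, the most abundant of the 10 per length, was at 1294, 1577, 1806, 2462 and 3722 CPM in WT#1-4 and at 599, 1693, 2255, 2554 and 2358 CPM in WT#20D-17. Nox4-/- #5-8 had 617, 1307, 1610, 1858 and 1179 CPM, and Nox4-/- #5-23 had 837, 1469, 2364, 2855 and 3105 CPM. All 4 lines had their lowest Fn1 level on day 0, and Nox4-/- #5-8 was the lowest line on day 14. Fn1 shares exonic sequence with the antisense gene Apol7d, which had at most 66 counts in a library, and whether strand was used in the counting is not given in the sources used here.

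Snai1, which encodes the repressor Snail, had low counts outside WT#20D-17. It was at 1.63, 1.51, 1.27, 1.71 and 1.04 CPM in WT#1-4 and at 3.36, 10.1, 19.8, 15.1 and 109 CPM in WT#20D-17 (2074 counts on day 14, 95% Wilson interval 104 to 114 CPM). The 2 knockout lines differed, at 2.48, 2.06, 1.95, 1.40 and 1.298 CPM in #5-8 and at 0.520, 0.367, 0.265, 0.222 and 0.182 CPM in #5-23, the last from 5 counts (interval 0.0779 to 0.427 CPM). No library of #5-23 reached the lowest library of any other line. Such intervals cover counting error only.

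Zeb2, the other repressor with a wide range, was at 16.3, 8.78, 8.09, 3.83 and 2.13 CPM in WT#1-4 and at 1.84, 11.6, 21.4, 23.1 and 12.7 CPM in WT#20D-17. Nox4-/- #5-8 had 2.08, 0.881, 0.956, 0.722 and 0.139 CPM, and Nox4-/- #5-23 had 1.23, 0.916, 0.113, 0.0888 and 0.0729 CPM. The last library of #5-8 and the last 3 of #5-23 held 3 counts or fewer. WT#1-4 and the 10 knockout libraries did not overlap (lowest 2.13 against highest 2.08 CPM), which held for 1 of the 10 genes and for 5.16% of the 11522 genes. Zeb2 overlaps the antisense gene Zeb2os, which had at most 16 counts.

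The other 3 repressor genes are given by their ranges outside WT#20D-17. Snai2 (Slug) was between 8.17 and 14.7 CPM in WT#1-4, between 3.07 and 9.29 CPM in Nox4-/- #5-8 and between 3.64 and 6.38 CPM in Nox4-/- #5-23. In WT#20D-17 it was at 0.246, 0.388, 11.6, 15.5 and 4.04 CPM, so that the lowest and the highest library of the series both came from this line. Zeb1 was between 44.4 and 63.7 CPM in WT#1-4, between 36.3 and 63.5 CPM in #5-8 and between 60.8 and 66.8 CPM in #5-23, and at 7.75, 10.0, 24.0, 37.7 and 17.5 CPM in WT#20D-17. Twist1, a basic helix-loop-helix factor of early mesoderm, was between 17.9 and 31.0 CPM in WT#1-4, between 9.82 and 26.4 CPM over both knockout lines, and between 2.54 and 14.5 CPM in WT#20D-17. For Cdh2, Snai2, Zeb1, Zeb2 and Twist1, WT#20D-17 peaked on day 7 and was lower again on day 14.

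Levels of different genes can be set side by side only per length. Per kilobase of exon (RPKM from the TMM CPM), the medians over the 20 libraries were 149.7 for Fn1, 135 for Vim, 17.4 for Cdh1, 14.4 for Epcam, 8.76 for Twist1, 5.27 for Zeb1, 3.23 for Snai2, 2.37 for Cdh2, 0.969 for Snai1 and 0.0983 for Zeb2. The ranges over libraries overlapped between all neighbours in this order, so the order of neighbours holds for the medians and not for every library. Per length, Fn1 was above both Cdh1 and Epcam in every library except day 0 of WT#20D-17, and Vim was above both in every library except days 0 and 3 of that line.

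The balance within a library was read from ratios of counts per base of exon. The log2 ratio of Cdh2 to Cdh1 was -0.76, -2.29, -3.06, -4.52 and -7.19 in WT#1-4 over the 5 days, and -6.95, -3.78, -3.15, -2.92 and -4.50 in WT#20D-17. On day 0 N-cadherin transcripts were near those of E-cadherin in WT#1-4 and far below them in WT#20D-17, and by day 14 the order of these lines had turned over. In the knockout lines this ratio went from -0.17 to -5.51 (#5-8) and from 0.48 to -3.75 (#5-23), the direction of WT#1-4. The log2 ratio of Vim to Cdh1 went from -5.01 on day 0 to 1.37 on day 14 in WT#20D-17. It went from 4.81 to 2.05 in WT#1-4, from 3.79 to 3.07 in #5-8 and from 4.80 to 3.36 in #5-23. All 4 lines stood within 1.37 to 3.36 on day 14, after a day 0 spread of -5.01 to 4.81.

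**Figure D2:**
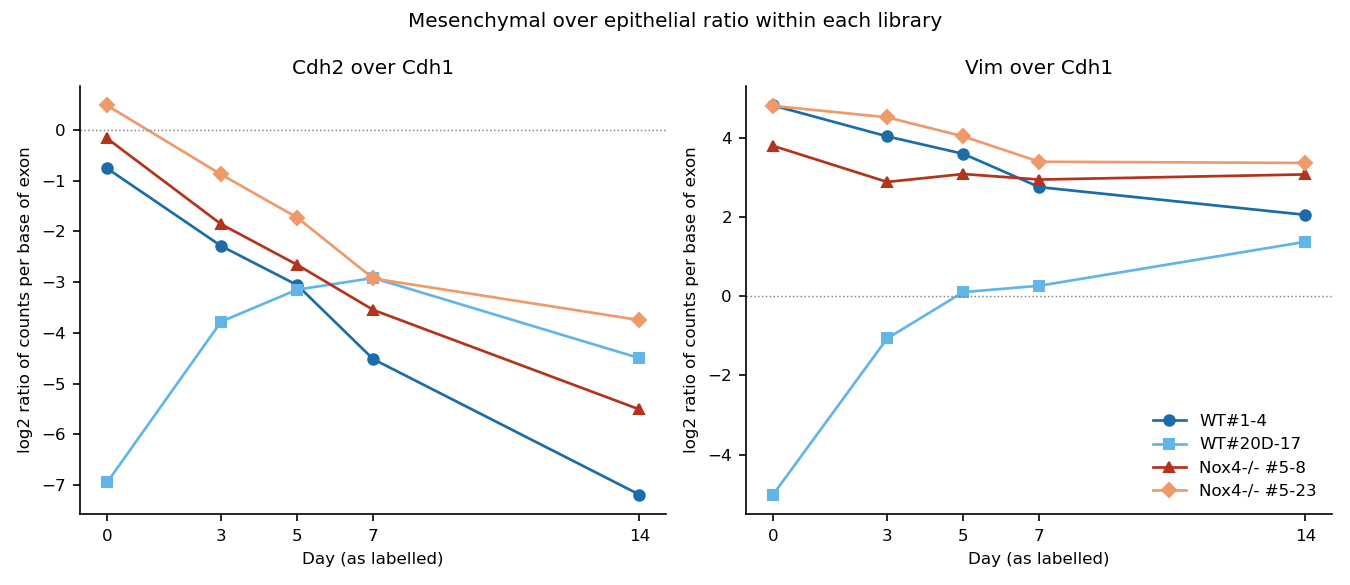
The log2 ratio of Cdh2 to Cdh1 (left) and of Vim to Cdh1 (right), from counts per base of exon within each library, against the labelled day for the 4 lines. The Cdh2 ratio declined at each step in the 3 lines other than WT#20D-17, whereas the Vim ratio of WT#20D-17 went from -5.01 to 1.37 and reached the neighbourhood of the others.

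Whether the genes changed between the start and the end of culture was tested over lines, with the line as a block (edgeR quasi-likelihood test, Benjamini-Hochberg FDR over 18474 genes, threshold 0.01). With all 4 lines, 3 of the 10 passed, against 27.8% of all genes tested. DESeq2 called 5 of 10 by adding Cdh1 and Zeb2, against 19.2% of 33631 genes with no filter on low counts. The 2 shares are not on 1 scale, as DESeq2 called more genes in all (6447 against 5139). Epcam rose by 2.53 ± 0.62 (log2, SE) from day 0 to day 14 (edgeR FDR = 0.00387), Fn1 rose by 1.60 ± 0.24 (edgeR FDR = 6.42e-05) and Cdh2 fell by 2.63 ± 0.63 (edgeR FDR = 0.00328). Fn1 was higher on day 14 in 4 of 4 lines, Epcam in 3 of 4, and Cdh2 was lower in 3 of 4. The Fn1 call held when any line was left out. The Epcam and Cdh2 calls did not: edgeR FDR was 0.0575 and 0.0408 without WT#1-4, 0.0622 and 0.0519 without Nox4-/- #5-8, and 0.0457 and 0.0281 without Nox4-/- #5-23.

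Without WT#20D-17, 6 of the 10 genes passed, against 34.3% of 17021 genes tested. Cdh1 (2.18 ± 0.33), Epcam (3.61 ± 0.28), Fn1 (1.52 ± 0.27) and Vim (0.47 ± 0.13) rose, and Cdh2 (-3.11 ± 0.31) and Zeb2 (-3.36 ± 0.54) fell, with edgeR FDR between 2.24e-06 and 0.00823. In these 3 lines an epithelial pair and a mesenchymal pair thus rose together while N-cadherin and a Zeb repressor fell. Snai1 turned direction with the choice of lines, from 0.93 ± 0.79 over 4 lines to -0.96 ± 0.35 over 3, and passed in neither (edgeR FDR = 0.369 and 0.0387). Zeb1, Snai2 and Twist1 passed in neither set, with estimates between -0.36 and 0.82.

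**Figure D3:**
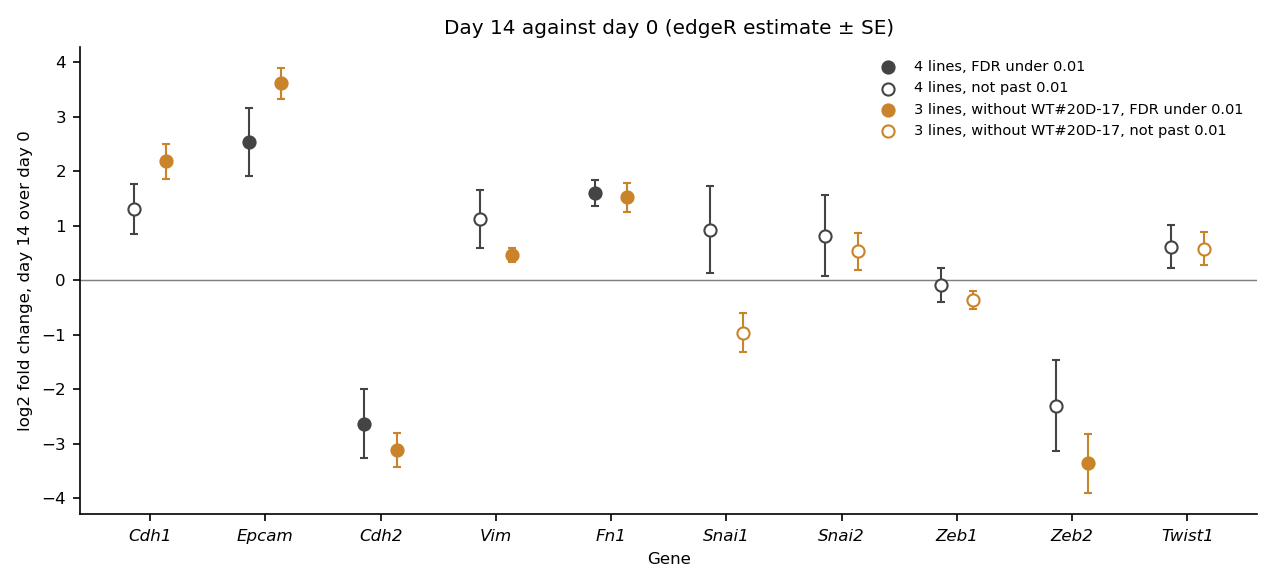
The log2 fold change of day 14 over day 0 with its SE (edgeR) for the 10 genes, over all 4 lines (grey) and over the 3 lines without WT#20D-17 (orange), filled where the FDR is under 0.01. Filled points number 3 with all lines and 6 without WT#20D-17, and Snai1 lies on opposite sides of 0.

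Over the whole course (the 4 day terms together), Fn1 alone passed with all lines, 1 of 10 against 17.3% of all genes (edgeR FDR = 0.000564). DESeq2 called 3 of 10 against 15.3% of 33631 genes, and edgeR with no filter on low counts 3 of 10 against 9.46% of 33860, both by adding Epcam and Cdh2. The Fn1 call was lost without Nox4-/- #5-23 (edgeR FDR = 0.0274). Without WT#20D-17, 6 of 10 passed against 23.4%, the same 6 genes as for day 14. For single steps of the course few genes of any kind passed. From day 0 to 3, from day 3 to 7 and from day 7 to 14, 0 of 10 genes passed, against 0.162%, 0% and 0.0108% of all genes. At an unadjusted p under 0.05 the counts were 1, 2 and 1 of 10, near the 11.4%, 17.5% and 16.9% of all genes, and DESeq2 called 0 in each step, against 0.705%, 1.37% and 1.52% of genes. Without WT#20D-17, Epcam passed in 1 step, day 3 to 7, by 1.79 ± 0.26 (edgeR FDR = 0.00658), 1 of 10 against 0.259%.

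Whether the courses differed between lines was asked with a slope on the day for each of the 4 lines, a fit added after the counts had been seen. Equal slopes were refused for Cdh1 (edgeR FDR = 0.00704), Epcam (edgeR FDR = 0.00128) and Snai1 (edgeR FDR = 3.82e-05), 3 of 10 against 9.19% of 19240 genes. Per day, the Epcam slope in log2 units was 0.31 ± 0.04 in WT#1-4, 0.25 ± 0.04 in #5-8, 0.20 ± 0.04 in #5-23 and -0.08 ± 0.04 in WT#20D-17. For Cdh1 the slopes were 0.22 ± 0.04, 0.05 ± 0.04, 0.11 ± 0.04 and -0.09 ± 0.04 in the same order of lines. Snai1 had slopes of -0.04 ± 0.03, -0.07 ± 0.03, -0.11 ± 0.04 and 0.33 ± 0.03. The line with slopes of the other sign in all 3 genes was WT#20D-17, and its Snai1 slope was the single one of its 10 that passed (edgeR FDR = 9.71e-07), against 18.8% of all genes. In WT#1-4 the Cdh1 and Epcam slopes passed (2 of 10 against 21.9%). In each knockout line the Epcam slope did (1 of 10 against 13.7% in #5-8 and 12.2% in #5-23).

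Lines of 1 genotype were compared over the 5 days, with the day as a block. WT#20D-17 differed from WT#1-4 in 6 of the 10 genes, against 39.8% of all genes, a share of all genes so wide that the count for these genes says little by itself. Cdh1 (2.48 ± 0.42), Epcam (2.20 ± 0.55), Cdh2 (2.25 ± 0.56) and Snai1 (3.91 ± 0.70) were higher in WT#20D-17, and Zeb1 (-1.62 ± 0.29) and Twist1 (-1.83 ± 0.37) were lower, with edgeR FDR between 0.000121 and 0.003. The Epcam difference lost its call without day 0, 3 or 5 and the Cdh2 difference without day 3, 5, 7 or 14, while without day 0 Zeb2 (1.84, edgeR FDR = 0.00729) and Vim (-1.01, edgeR FDR = 0.000988) passed as well. Between the knockout lines 0 of 10 passed, against 3.55% of all genes by edgeR. Snai1 was lower in #5-23 by -2.56 ± 0.71 (edgeR FDR = 0.0334), 2 of 10 had an unadjusted p under 0.05 (21.4% of all genes did), and DESeq2 called Snai1 (adjusted p = 0.00206), 1 of 10 against 4.33%. Without day 14 the Snai1 difference passed by edgeR as well (-2.50, FDR = 0.00786).

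The study's own question was the loss of Nox4. The targeted gene had 0, 2, 0, 1 and 0 counts over the days in Nox4-/- #5-8 and 0 counts in all 5 libraries of Nox4-/- #5-23. It had 7, 22, 21, 12 and 3 counts in WT#1-4, and 64, 165, 188, 203 and 56 counts in WT#20D-17. Nox4 was thus at or near 0 in the knockout lines, in accord with the labels, and the 2 wild type lines differed in its level by 3.56 ± 0.43 on the log2 scale (edgeR FDR = 1.67e-05).

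Days were pooled, as the study's methods did. The 5 libraries of WT#1-4 were set against the 10 of both knockout lines (edgeR exact test, FDR over 33860 genes). Days of a line are not independent replicates, so these values describe libraries more than genotypes. Of the 10 genes 2 passed, against 5.62% of all genes, which here include genes with few counts. Zeb2 was lower in the knockout by -3.43 (edgeR FDR = 7.03e-06) and Snai2 by -1.04 (edgeR FDR = 0.00363), both log2. The Zeb2 call held without either knockout line and without any day, with log2 differences between -4.0 and -3.02. That for Snai2 held with DESeq2 and in a quasi-likelihood fit with the day as a block. It was lost without Nox4-/- #5-23 (edgeR FDR = 0.134), and without day 0, 3, 7 or 14 (edgeR FDR = 0.051, 0.037, 0.041 and 0.012). It was also lost when these libraries were tested by quasi-likelihood without that block (edgeR FDR = 0.0131), and against WT#20D-17 the Snai2 difference was -0.17 (edgeR FDR = 0.966). Cdh1 (-0.57), Epcam (-0.76), Vim (-0.23), Fn1 (-0.34), Snai1 (-0.42), Zeb1 (0.12), Twist1 (-0.59) and Cdh2 (0.97) did not pass. Cdh2 passed when the day was entered as a block in a quasi-likelihood fit (0.96 ± 0.21, edgeR FDR = 0.000651), and Twist1 in the exact test without day 14 (-0.87, edgeR FDR = 0.00102). Snai1 passed without Nox4-/- #5-8 (-2.19, edgeR FDR = 4.57e-06), that is, on the knockout line with the lowest Snai1 level alone.

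When WT#20D-17 was the wild type line compared, the knockout libraries being the same, 5 of 10 passed against 25.8% of all genes. Cdh1 (-2.75), Epcam (-2.06), Snai1 (-4.87) and Zeb2 (-4.28) were lower and Zeb1 (1.59) was higher in the knockout, with edgeR FDR between 2.25e-17 and 0.000112. Cdh2, Vim and Twist1 had the opposite sign to that against WT#1-4, at -1.01, 0.93 and 1.06. The knockout value for most of these genes therefore depended on which wild type line it was set against.

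**Figure D4:**
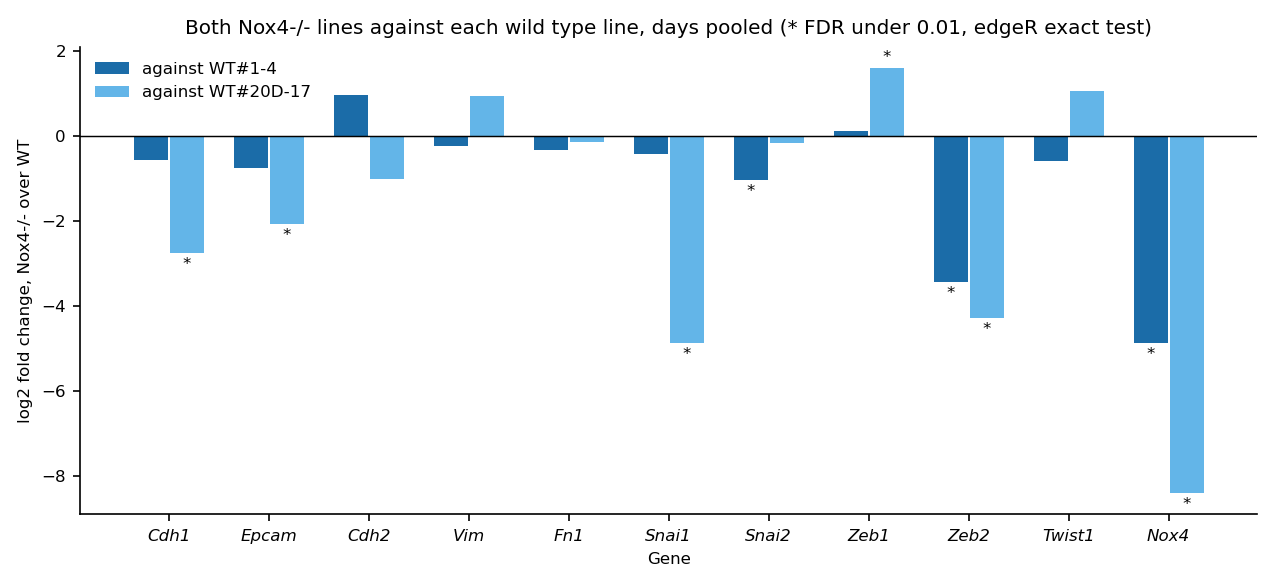
The log2 fold change of both knockout lines over WT#1-4 (dark) and over WT#20D-17 (light), days pooled, for the 10 genes and for Nox4, with stars at an edgeR exact test FDR under 0.01. The bars of Zeb2 stand at -3.43 and -4.28, and Cdh2, Vim and Twist1 have bars of opposite sign.

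With the line as the unit (counts summed over days, 2 lines against 2), 0 of 10 genes and 0% of 20229 genes passed by edgeR. An unadjusted p under 0.05 was reached by 1 of the 10 and by 1628 genes, and DESeq2 called 1 of the 10, against 2.46% of genes. The Zeb2 estimate was -3.88 ± 0.69 (edgeR FDR = 0.604, DESeq2 adjusted p = 2.27e-06), and that of Nox4 itself was -7.88 ± 2.22 (edgeR FDR = 0.604). Whether the course over days differed between genotypes was tested with 4 interaction terms. None of the 10 passed (0 of 10 against 0.0104% of 19240 genes by edgeR, 0 at an unadjusted p under 0.05, 0 by DESeq2 against 0.583%). Without WT#1-4, leaving WT#20D-17 as the lone wild type line, 5 of 10 passed against 3.34%: Epcam, Cdh2, Vim, Snai1 and Snai2, with edgeR FDR between 0.000922 and 0.00726. That fit has 1 wild type line, assumed to vary as the knockout lines do, so its calls describe that line. Without WT#20D-17, 0 of 10 and 0% of all genes passed (lowest edgeR FDR = 0.176).

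Other genes of the epithelial program were read from a list of 20 junction and keratin genes. Over 4 lines, 14 rose and 0 fell from day 0 to day 14 (median log2 change 2.23, all genes 0.04), where 27.8% of all genes passed in either direction. Without WT#20D-17, 17 rose and 1 fell, where 34.3% of all genes passed. The keratin genes Krt19 (5.86 ± 0.43, edgeR FDR = 5.72e-07) and Krt8 (5.20 ± 0.47, edgeR FDR = 1.57e-06), which make filaments of simple epithelium, and the junction gene F11r (2.52 ± 0.25, edgeR FDR = 2.94e-06) led. Against WT#1-4, 6 were lower and 0 higher in the knockout (median -0.99), where 5.62% of all genes passed. The claudin genes Cldn3 (-4.27, edgeR FDR = 1.65e-18), Cldn4 (-5.19, edgeR FDR = 3.94e-11) and Cldn6 (-3.52, edgeR FDR = 2.61e-05), which seal tight junctions, were among them. Cldn4 was at 0.608, 2.86, 4.59, 9.75 and 23.2 CPM in WT#1-4, and at most 0.578 CPM in the knockout libraries. Of the 20, 15 were lower in the knockout against WT#20D-17 (25.8% of all genes passed).

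Of 10 regulators of the epithelial state, 3 rose and 1 fell over the days, a share near the 27.8% of all genes, and without WT#20D-17 5 rose and 1 fell (34.3% of all genes). Elf3 rose by 2.42 ± 0.25 (edgeR FDR = 4.07e-06), Ovol1 by 4.27 ± 0.73 (edgeR FDR = 0.000233) and the splicing factor gene Esrp1 by 1.97 ± 0.40 (edgeR FDR = 0.000996). Esrp1 was also the single one of these 10 that passed against WT#1-4, lower in the knockout by -2.74 (edgeR FDR = 1.43e-07), at 12.0 to 84.6 CPM in WT#1-4 and 1.52 to 12.6 CPM in the knockout lines. Grhl2, a regulator of Cdh1, was at 46.4 CPM on day 0 in WT#20D-17 and at most 0.587 CPM in any library of the other 3 lines. Against WT#20D-17, 6 of the 10 were lower and 1 higher in the knockout (25.8% of all genes passed). The list includes Klf4, at 17.8 to 180 CPM in WT#20D-17 and 460 to 828 CPM in the knockout lines. Klf4 is also a reprogramming factor, whose vector and resident transcripts cannot be told apart in these counts.

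Of 20 mesenchymal effectors, 9 rose and 0 fell over the days (median 1.37, 27.8% of all genes passing), and without WT#20D-17 9 rose and 2 fell (median 1.22, 34.3%). Loxl2 (5.29 ± 0.37, edgeR FDR = 3.72e-07), an enzyme that cross-links collagen, the matrix gene Sparc (3.95 ± 0.43, edgeR FDR = 5.84e-06) and the integrin gene Itgb1 (1.32 ± 0.16, edgeR FDR = 9.8e-06) led. In the knockout 10 of the 20 were lower and 0 higher against WT#1-4 (median -1.83, 5.62% of all genes passing), led by the protease gene Mmp2 (-4.78, edgeR FDR = 4.09e-54), Fbn1 (-2.78, edgeR FDR = 1.71e-13) and Col1a2 (-3.60, edgeR FDR = 5.86e-13), and 15 were lower and 2 higher against WT#20D-17 (25.8%). Vim and Fn1 did not pass in either of these comparisons.

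Of 13 other transcription factors of the transition, 12 could be tested over the days and 1, Tcf3, passed (-0.77 ± 0.15, edgeR FDR = 0.000555), against 27.8% of all genes. Without WT#20D-17, 3 of 12 passed against 34.3%: Snai3 rose by 4.44 ± 0.66 (edgeR FDR = 0.00014), Eomes rose by 1.69 ± 0.38 (edgeR FDR = 0.00269) and Tcf3 fell, and the median of the list turned from 0.12 to -0.39. Prrx1 (-3.56, edgeR FDR = 3.73e-26), Mesp1 (-2.53, edgeR FDR = 1.25e-06) and Tcf3 (-0.82, edgeR FDR = 0.00162) were lower in the knockout against WT#1-4, 3 of 13 against 5.62% of all genes. Against WT#20D-17, 6 of the 13 were lower and 0 higher (25.8% of all genes passed). Prrx1 was at 0.574 to 4.17 CPM in WT#20D-17 and at 1.01 to 3.46 CPM in the knockout lines. Among 17 inducing signals and receptors, 15 of them tested, 3 rose over the days (Tgfb3, Tgfbr2 and Bmp4, by 2.57, 2.01 and 1.68) and 1 fell, a share near the 27.8% of all genes, with edgeR FDR for the 3 between 8.53e-05 and 0.00197, and without WT#20D-17 4 rose and 2 fell of 14 tested (34.3% of all genes). Against WT#1-4, where 5.62% of all genes passed, 4 were lower in the knockout, Nodal (-4.66, edgeR FDR = 2.84e-13) and Tgfb3 (-2.63, edgeR FDR = 4.18e-07) among them, and Wnt5a was higher (1.87, edgeR FDR = 3.15e-06). Against WT#20D-17, 9 of the 17 were lower and 2 higher (25.8% of all genes passed). Tgfb3 was at 0.779 to 10.1 CPM in WT#20D-17 and at 1.60 to 15.2 CPM in the knockout lines. Wnt5a was at 0.861 to 48.9 CPM in WT#20D-17 and at 5.01 to 15.7 CPM in the knockout lines. Of 7 genes of catenins and other cadherins, 6 were tested. Over the days 3 rose, Jup (1.87), Cdh5 (4.54) and the catenin gene Ctnna1 (0.50), and 3 rose without WT#20D-17 too (27.8% and 34.3% of all genes passed). Jup is also in the list of junction genes, and Cdh5 in that of endothelial and blood markers. In the knockout, Cdh6 was the 1 of 7 that passed against WT#1-4 (-1.94, edgeR FDR = 0.00964), against 5.62% of all genes. Against WT#20D-17, 4 of these 7 were lower and 0 higher (25.8% of all genes passed).

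Summed levels of cell type markers are given by line, since those of WT#20D-17 lay far from those of the other 3. From day 0 to day 14 over 4 lines, 4 of 10 endoderm, 3 of 8 muscle, 1 of 10 fibroblast, 1 of 7 mesoderm and streak and 1 of 4 endothelial and blood markers tested rose, and 1 of 6 neural and 2 of 8 pluripotency markers fell, where 27.8% of all genes passed. Without WT#20D-17, where 34.3% of all genes passed, 0 of the 4 endoderm markers tested passed. In those 3 lines 2 of 3 muscle, 2 of 6 mesoderm and streak and 1 of 4 endothelial and blood markers tested rose. Of 5 neural markers 2 fell, and of 9 fibroblast markers 1 rose and 1 fell. Of 6 pluripotency markers 1 rose (Tdgf1, 1.47 ± 0.32, edgeR FDR = 0.00217) and 1 fell (Pou5f1, -0.98 ± 0.27, edgeR FDR = 0.00988). The 8 pluripotency markers summed to 3758, 1241, 359, 257 and 97.2 CPM over the days in WT#20D-17, with Pou5f1 the most abundant until day 7. In the other 3 lines the sum was between 1287 and 5800 CPM, nearly all of it Pou5f1, and 1 to 4 of the 8 had 3 counts or fewer in a library. The 10 endoderm markers summed to 624, 1442, 2803, 4424 and 10920 CPM in WT#20D-17, where Lama1 made up 8610 CPM on day 14 and Afp 667 CPM. In the other lines they summed to between 20.2 and 131.7 CPM, most of it Dab2, with 2 to 8 of the 10 at 3 counts or fewer in a library and Sox17 at 0 counts in all 10 knockout libraries.

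The 10 fibroblast markers, which bear on feeder cells, summed to 28.1, 114, 401, 1700 and 2079 CPM in WT#20D-17, with Col1a1 the most abundant from day 5 on. They summed to between 118 and 266 CPM in WT#1-4 and between 38.6 and 99.7 CPM in the knockout lines, with Fbln2 the most abundant in each of these 15 libraries except day 0 of WT#1-4 (Prrx1), and with 0 to 3 of the 10 at 3 counts or fewer. On day 0 of WT#20D-17, when Vim was at 14.7 CPM, the fibroblast sum was at its lowest. On the same day the sum was 38.6, 39.1 and 118 CPM in Nox4-/- #5-8, Nox4-/- #5-23 and WT#1-4, with Vim at 437, 552 and 551 CPM. The 8 markers of cardiac and smooth muscle summed to between 16.3 and 896 CPM in WT#20D-17, between 6.001 and 44.9 CPM in WT#1-4 and between 1.67 and 19.7 CPM in the knockout lines. Against WT#1-4, 5 of the 10 fibroblast markers, 3 of the 8 muscle markers and 3 of 7 mesoderm and streak markers were lower in the knockout, as were 1 of 7 neural and 1 of 6 endothelial and blood markers, and 0 of the 10 endoderm markers passed, where 5.62% of all genes did. Against WT#20D-17, 10 of 10 endoderm, 7 of 8 muscle, 6 of 7 mesoderm and streak and 6 of 10 fibroblast markers were lower in the knockout, where 25.8% of all genes passed. In that comparison 3 of 7 neural markers were lower and 3 higher, 4 of 6 endothelial and blood markers were lower and 2 higher, and 6 of 8 pluripotency markers were lower and 1 higher. Of the pluripotency markers, Utf1 was lower against WT#1-4 (-8.62) and Sox2 higher (3.27). The part of these cell types in the levels of the 10 genes was not tested.

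**Figure D5:**
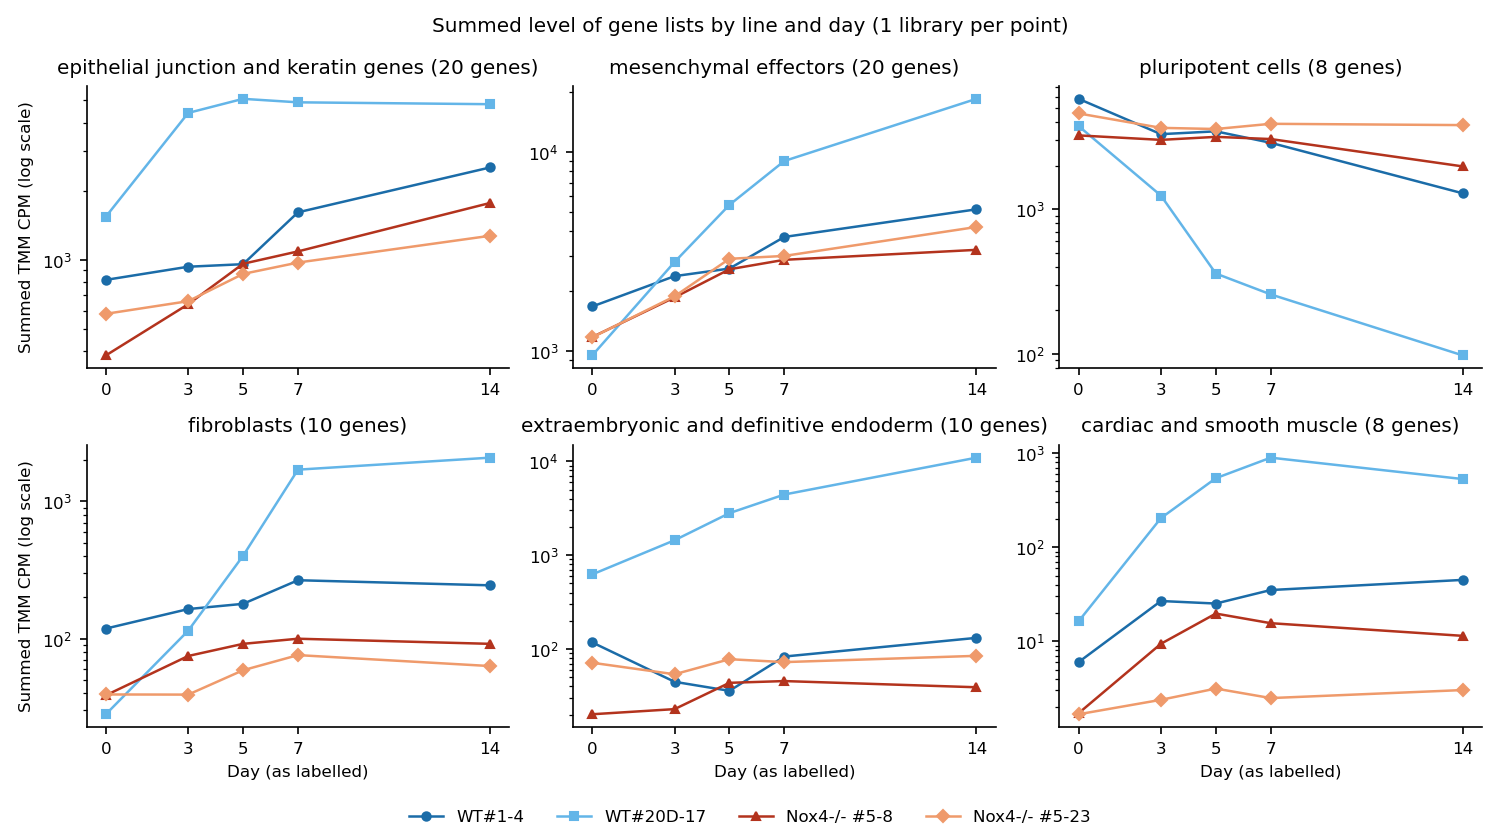
Summed level (TMM CPM, log axis) of 6 gene lists against the labelled day for the 4 lines, with 1 library per point. The endoderm, fibroblast and muscle sums of WT#20D-17 exceed those of all other lines from day 5 on, and its pluripotency sum is 97.2 CPM on day 14, below that of every other line.

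The 10 genes did not move as 1 block. Over the 20 libraries, Pearson's r of log2(CPM + 1) was 0.91 between Cdh1 and Epcam, and it was 0.89 over the 15 libraries without WT#20D-17. For Epcam and Cdh2 it was -0.27 over 20 and -0.90 over 15, for Cdh1 and Vim -0.50 and 0.50, and for Cdh1 and Zeb1 -0.81 and -0.53. Of these 4 pairs, Cdh1 and Vim changed sign without WT#20D-17 and the other 3 did not. Further pairs of the 10 genes changed sign too, such as Vim and Zeb1 (0.77 over 20 and -0.17 over 15) and Zeb1 and Twist1 (0.79 and -0.21). Others kept it, such as Snai2 and Twist1 (0.74 and 0.65). Within the 5 libraries of WT#20D-17, r was -0.92 between Cdh1 and Snai1, but it was 0.66 over 20 libraries and 0.16 over 15. Between Vim and Fn1 it was 0.99 within those 5, 0.52 over 20 and 0.58 over 15. The points share 4 lines and 5 days, so these values are descriptions.

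The genes most like each of the 10 over the 20 libraries, by the same measure among 11522 genes, were Trim71 and Rragd for Cdh1 (r = 0.962 and 0.960) and Crb3 and Klc3 for Epcam (0.973 and 0.954). They were Mmd and Vgll3 for Cdh2 (0.909 and 0.902), Capn2 and Lats2 for Vim (0.938 and 0.936), and Thbs1 and Rora for Fn1 (0.926 and 0.913). For the repressors they were Col4a1 and Cmklr1 for Snai1 (0.970 and 0.967), Chd3 and Tanc2 for Snai2 (0.83 and 0.826), Adamts12 and 2700081O15Rik for Zeb1 (0.966 and 0.965), Klf8 and Zfp697 for Zeb2 (0.949 and 0.935), and Rab11b and Grk5 for Twist1 (0.903 and 0.894). Crb3, which encodes an apical polarity protein of epithelia, kept r = 0.973 with Epcam over the 15 libraries without WT#20D-17. Capn2 and Lats2, by contrast, had r = 0.06 and 0.182 with Vim over those 15, so that their likeness rested on the libraries of WT#20D-17.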

How the data were processed

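Per the study's methods and the labels, the authors made RNA-seq libraries with a stranded mRNA kit, trimmed reads, mapped them with STAR 2.6.0c to mouse mm10 (GRCm38) and counted genes with RSEM 1.3.1. The deposited values are expected counts per gene, 1 column per library. Whether RSEM used the strand is not given in the sources used here.

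Expected counts were rounded to whole numbers. Genes were named from GENCODE M21. Tests used edgeR 4.0.16 (TMM, filterByExpr, quasi-likelihood; exact test on nonzero genes for pooled days) under R 4.3.3, with Benjamini-Hochberg adjustment and a threshold of 0.01, and DESeq2 1.42.0 as an alternative. Other alternatives were upper quartile factors, DESeq2's size factors in edgeR, no filter, no replicate block, other thresholds, and leaving out each line or day. The shares of all genes for DESeq2 and for pooled days are over genes with no filter on low counts. They are therefore not on 1 scale with the edgeR shares over filtered genes. EBSeq-HMM, the study's test over days, was not used. Each SE given with an edgeR log2 change was not fitted directly. It is the size of that change over the square root of its quasi-likelihood F statistic. The line blocks day comparisons because its libraries come from 1 cell line. Differences between lines of a genotype correlated across pairs of days at r between 0.588 and 0.935 (WT) and between 0.420 and 0.917 (Nox4-/-). No 2 columns were identical. Steps were tested on simulated data.

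Genes named are the 10 genes, Nox4, the 2 genes most correlated with each, and from each list the 3 of smallest FDR in the day 14 and pooled genotype tests and the most abundant marker. Levels of Nanog, Zfp42, Grhl2, Afp and Sox17 were chosen from the lists after their values were seen. The genes and lists were chosen with earlier results of these data known. RPKM used the union of exons.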

Additional observations from a re-analysis of the deposited data

Results flagged for a closer look

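Among the 4 lines on each day, the level of 1 line lay far from the other 3 in 7 of 50 sets (10 genes on 5 days), by Dixon's criterion for 4 values, which chance meets in about 5% of sets; the sets share lines and are not independent. These are 14% of the sets, near the 11.4% of 57610 sets over all 11522 genes with a mean of at least 5 CPM, of which 81.7% had WT#20D-17 as the line apart. In 6 of the 7 the line was WT#20D-17: Cdh1 at 459 CPM, Epcam at 119.9 CPM, Vim at 14.7 CPM and Zeb1 at 7.75 CPM on day 0, Zeb1 at 10.0 CPM on day 3 and Snai1 at 109 CPM on day 14. The remaining one was Zeb2 in WT#1-4 on day 0, at 16.3 CPM.

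The slopes on the day differed between the 4 lines for Cdh1 (edgeR FDR = 0.00704), Epcam (edgeR FDR = 0.00128) and Snai1 (edgeR FDR = 3.82e-05), in a test added after the data had been seen.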

How the results depend on the processing

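With 2 lines per genotype and 1 library per line and day, the spread between lines limits the tests over days and of genotype, and low counts limit Snai1 in Nox4-/- #5-23 and Zeb2 in both knockout lines. Counts of genes past the threshold moved with the settings as follows. For the day course (3188 genes) they were 644 with no replicate block for the line, 5138 with DESeq2, 5296 at an FDR of 0.05 and 624 to 3978 when a line was left out. For day 14 against day 0 (5139) they were 1756 without the block, 7785 at 0.05 and 2567 to 5839 with a line left out. The step from day 0 to 3 (30) had 0 without the block, 237 with DESeq2, 92 with no filter, 119 at 0.05 and 0 to 89 with a line left out. The step from day 3 to 7 (0) had 460, 2, 41 and 0 to 44 with DESeq2, no filter, 0.05 and a line left out, and that from day 7 to 14 (2) had 0 without the block, 510, 23, 88 and 0 to 21. Between the Nox4-/- lines (655) there were 305 with no replicate block for the day, 1457 with DESeq2 and 159 to 812 with a day left out; between the wild type lines (7350), 5319 to 7857. Genotype by day (2) had 0 without the block, 196 with DESeq2, 11 with no filter, 5 at 0.05 and 0 to 666 with a line left out. Pooled genotype (1903) had 1228 by quasi-likelihood, 8751 against WT#20D-17, 4101 with both wild type lines, 1221 at 0.001, and 1114 to 1964 with a line or day left out. With the line as the unit (0), DESeq2 called 826, the exact test 139 and a left-out line or day gave 0 to 178.

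Signs that turned were as follows, in log2 units, with the lowest and highest value when a line or day was left out. For day 14 against day 0, Snai1 ranged from -0.96 (without WT#20D-17) to 1.57 (without Nox4-/- #5-8), and Zeb1 from -0.36 to 0.08, with 0.06 without WT#1-4. For pooled genotype, against WT#20D-17 and against both wild type lines, Cdh2 was -1.01 and -0.33, Vim 0.93 and 0.23, and Twist1 1.06 and 0.01; without a knockout line, Snai1 was -2.19 or 0.36 and Zeb1 0.24 or -0.01. With the line as the unit, Cdh2 ranged from -0.91 to 0.97 (without WT#20D-17), with 0.03 without day 7, and Twist1 from -0.57 (without WT#20D-17) to 1.15, with -0.14 without Nox4-/- #5-23 and -0.27 without day 14; Vim was -0.21 without WT#20D-17 and Fn1 0.18 without Nox4-/- #5-8. Between the knockout lines, Cdh2 ranged from -0.06 (without day 14) to 0.41. None of the values with a sign opposite to that in the tests above passed the threshold. The Snai1 value of -2.19, which kept its sign, did pass. Causes were not tested. Without the replicate block for the line, Epcam on day 14 was 1.05 (edgeR FDR = 0.537) and Cdh2 -2.04 (edgeR FDR = 0.105), and without that for the day neither passed between the wild type lines (edgeR FDR = 0.176 and 0.0406).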
